A study of Sus scrofa with 6 samples.

Results

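The C1q-like proteins (C1QL1 to C1QL4), the cerebellins (CBLN1 to CBLN4) and ADGRB3, the adhesion G protein-coupled receptor that binds the C1q-like proteins, were followed in the brain transcriptomes of wild boars and Rongchang pigs. Of these 9 genes, 7 were matched by symbol to a row among the 18225 genes listed, each to 1 row. C1QL1 and CBLN1 were matched to none and were not analysed here. The family was chosen by the FPKM values of C1QL2, which were lower in wild boar, so the breed difference of C1QL2 is a description and carries no test, while the other members were included for their kinship or their binding to it.

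The animals were 3 wild boars and 3 pigs of the Rongchang breed, a domesticated Chinese pig, all 210 days old, with 1 library of polyadenylated RNA per animal. The labels give the tissue as brain without a region, and state neither sex nor treatment for either breed. Values are FPKM, fragments per kilobase of transcript relative to all mapped fragments, which are per length and so allow levels of different genes to be set side by side. Depth per library is unknown. Nothing in the labels says more of the animals' origin than a number, and any p-value here speaks of the scatter of these 6 libraries.

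C1q-like proteins and cerebellins are small secreted proteins that carry the globular domain of complement C1q and assemble into multimers. They act as bridges across the synaptic cleft and help to build and maintain synapses. Cerebellins bind neurexins on the presynaptic side and delta glutamate receptors such as GRID1 on the postsynaptic side, as shown mostly in mouse. The C1q-like proteins bind ADGRB3, and in mouse hippocampus C1ql2 and C1ql3 are released by the mossy fibres of dentate granule cells, where they interact with neurexin 3 and with kainate receptor subunits.

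Neuronal transcripts were abundant in every library, with the vesicle fusion gene SNAP25 at 786 to 1102 FPKM in wild boar and 786 to 1156 FPKM in Rongchang. The lists for cerebellar cells gave mixed levels. Of the 11 cerebellar granule cell genes with a row, of 16 listed, GABRA6, FAT2, ZIC4 and CDH15 stayed under 1 FPKM in every library, with GABRA6, the receptor subunit, at most at 0.185 FPKM. The others included TIAM1 at 10.7 to 17.4 FPKM, ETV1 at 5.61 to 6.52 FPKM and PAX6 at 3.86 to 5.97 FPKM over the 6 libraries, and the list summed to 31.5 to 41.0 FPKM in wild boar and 36.6 to 42.4 FPKM in Rongchang. Of the 8 Purkinje cell genes with a row, of 13 listed, CA8 was at 1.74 to 4.59 FPKM and ITPR1 was at 12.9 to 23.7 FPKM. The share of cerebellar tissue in the samples was not tested. The thyroid hormone carrier TTR, abundant in choroid plexus, was at 34.2 FPKM in wild boar 3 and at most at 3.01 FPKM in the other 5 libraries. Of the 4 choroid plexus genes with a row, of 7 listed, CLIC6, KCNJ13 and PRLR stayed under 1 FPKM in every library. None of these was highest in wild boar 3. The libraries numbered 2 of both breeds were more alike (Spearman 0.969 over the genes tested) than either was to any other library (0.937 to 0.956). Over all 13152 genes tested, the median log2 fold change of wild boar against Rongchang was −0.13 and 77.9% of genes lay below 0, so each fold change here includes a shared shift. With each library scaled to the same median, that median was 0.02 and 46.4% lay below 0.

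The members fell into separate levels. ADGRB3 averaged 16.7 FPKM over the 6 libraries, with a range of 12.4 to 21.1 FPKM. C1QL3 averaged 14.9 FPKM (9.61 to 21.1 FPKM) and CBLN2 averaged 14.2 FPKM (13.4 to 15.1 FPKM). The ranges of these 3 genes overlapped, and their order is not separated by the data. C1QL2 followed at 4.69 FPKM (2.58 to 6.47 FPKM), below every value of CBLN2. CBLN4 averaged 0.930 FPKM (0.653 to 1.16 FPKM), and CBLN3 averaged 0.429 FPKM (0.325 to 0.505 FPKM). C1QL4 lay lowest at 0 to 0.383 FPKM, a range that overlapped that of CBLN3. ADGRB3, C1QL3 and CBLN2 stood above 72.5% to 84.4% of all listed genes in every library, and C1QL2 above 43.7% to 60.3%.

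**Figure D1:**
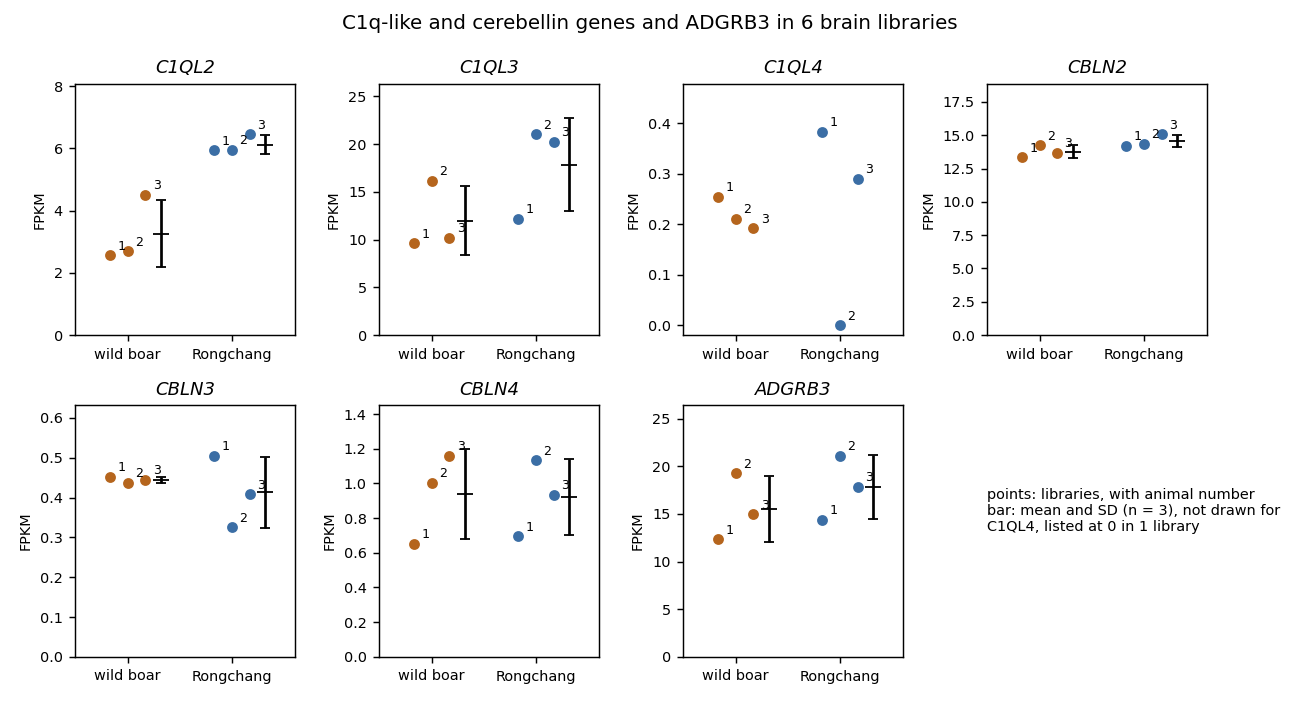
FPKM of the 7 members with a row, with 1 panel per gene on its own scale, wild boar libraries in brown on the left and Rongchang libraries in blue on the right. Points are libraries with the animal number, and the bar is the mean with SD (n = 3). C1QL2 is the member whose breeds do not overlap, at 2.58 to 4.51 FPKM in wild boar and 5.94 to 6.47 FPKM in Rongchang.

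C1QL2, a secreted protein known in rodents from dentate granule cells, was at 2.58, 2.69 and 4.51 FPKM in the wild boar libraries, against 5.94, 5.96 and 6.47 FPKM in the Rongchang libraries. All wild boar values lay below all Rongchang values, with wild boar 3 nearest to the other breed. The means were 3.26 ± 1.09 FPKM in wild boar and 6.12 ± 0.299 FPKM in Rongchang (SD, n = 3 each), a log2 fold change of −0.77 in FPKM + 1, or −0.64 relative to the median gene. This difference is the reason the gene was chosen. It ranged from −0.97 to −0.63 over 16 alternative fits, all in the same direction. These fits reuse the values by which the gene was chosen, so their shared direction lends the difference no support. Of all genes tested, 11.4% had 3 wild boar libraries below 3 Rongchang libraries, and of the 5 members tested C1QL2 was the 1 with this order.

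Other genes of the dentate gyrus and the adjoining CA3 field were set beside C1QL2. A row was found for 11 of 16 of them, and their summed level was 72.5 to 82.1 FPKM in wild boar and 89.0 to 94.98 FPKM in Rongchang. FAM163B made up the largest part of this sum in every library. Of the 10 tested, 9 lay below 0, where 77.9% of all genes tested did, with a median log2 fold change of −0.22 against −0.13 over all genes tested. ZBTB20 went the other way, with a log2 fold change of 0.41 and overlapping breeds. It was at 1.82, 0.813 and 1.75 FPKM in wild boar and 1.31, 1.01 and 0.290 FPKM in Rongchang. The breeds did not overlap for FAM163B (32.1, 39.0 and 35.3 FPKM in wild boar and 41.9, 45.5 and 42.4 FPKM in Rongchang), MAN1A1 and GRIK4, each lower in wild boar, which is 3 of 10 where 11.4% of all genes tested had this order. They overlapped for PROX1, the transcription factor that marks dentate granule cells, at 1.36, 0.695 and 0.703 FPKM in wild boar and 1.31, 1.47 and 0.602 FPKM in Rongchang. The desmosome gene DSP, another dentate marker, was at 0.353, 0.284 and 0.147 FPKM in wild boar and 0.464, 0.368 and 0.428 FPKM in Rongchang. Its wild boar values also lay below its Rongchang values, but at this level it was not tested. The part of these cells in the C1QL2 values was not tested, and in whole tissue fewer cells of a type and less RNA per cell cannot be told apart.

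The genes most like C1QL2 across the 6 libraries were AP4B1 (Pearson r 0.99), NECAP1 (0.98) and KRCC1 (0.98), in log2(FPKM + 1) among 7506 other genes with a symbol and a mean of at least 2 FPKM. The breed means were not removed here, so each r includes the breed difference for which C1QL2 was chosen. With 6 libraries high values are common: 96 of those genes had an r above 0.9 with C1QL2. None of the 3 belongs to the family or to its binding partners.

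C1QL3, the close relative of C1QL2 that also binds ADGRB3, was at 9.61, 16.1 and 10.2 FPKM in the wild boar libraries and 12.2, 21.1 and 20.3 FPKM in the Rongchang libraries. The breeds overlapped, since wild boar 2 lay above Rongchang 1. C1QL3 averaged 11.99 ± 3.61 FPKM in wild boar and 17.8 ± 4.90 FPKM in Rongchang, with a log2 fold change of −0.53 (95% interval −1.14 to 0.07, adjusted p = 0.789 in limma over all genes tested). It did not pass, and the interval holds both a large decrease and no change. Set against the Rongchang animal of the same number, C1QL3 was lower in wild boar in 3 of 3 pairs, as were 38.5% of all genes tested (5.10% were higher in 3 of 3). The labels do not state such pairs, which were inferred from these same data. With these pairs in the fit, the 95% interval was −0.89 to −0.18, and the unadjusted p in limma was 0.0103 (16.0% of genes were lower and 1.41% higher at an unadjusted p under 0.05) and the adjusted p = 0.232 over all genes. With median scaling as well, the unadjusted p was 0.0248 (5.02% of genes were lower at that level) and the adjusted p = 0.449. Over 17 alternatives the fold change ran from −0.77 to −0.37. Its nearest patterns were those of STK24 (r 0.998), MGLL (0.993) and ANO3 (0.993), with 483 genes above 0.9.

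C1QL4, a further relative that binds ADGRB3 in cell assays, was at 0.254, 0.210 and 0.192 FPKM in wild boar and 0.383, 0 and 0.290 FPKM in Rongchang. It did not reach 1 FPKM in any library and was not tested. With depth unknown, no detection limit can be given for it.

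CBLN2, the most abundant cerebellin listed and a ligand of neurexins and delta receptors in forebrain, was at 13.4, 14.3 and 13.7 FPKM in the wild boar libraries and 14.2, 14.4 and 15.1 FPKM in the Rongchang libraries. Wild boar 2 lay just above Rongchang 1, so the breeds overlapped. CBLN2 averaged 13.8 ± 0.457 FPKM in wild boar and 14.6 ± 0.474 FPKM in Rongchang, with a log2 fold change of −0.07 that turned to 0.09 with median scaling (95% interval −0.38 to 0.23, adjusted p = 0.910 in limma).

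CBLN2 was among the steadiest transcripts of the data. Its coefficient of variation over the 6 libraries was 4.23%, and 37 of 13152 genes tested had a lower one. The median over all genes tested was 20.1%. With median scaling the coefficient was 4.08% and 55 genes lay lower. The other members tested varied more, at 19.8% for ADGRB3, 23.2% for CBLN4, 33.6% for C1QL3 and 36.7% for C1QL2. Among the partners, GRIK4 was at 6.46% and GRID1 at 8.61%. With median scaling these 2 were at 3.08% and 4.49% (16 and 89 genes lower), so such steadiness was not particular to CBLN2. The patterns nearest to that of CBLN2 were PNPLA2, WNT9A and TATDN2 (r 0.99 each), with 388 genes above 0.9.

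CBLN4, which in mouse also binds the netrin receptors DCC and neogenin, was at 0.653, 1.004 and 1.16 FPKM in wild boar and 0.696, 1.13 and 0.934 FPKM in Rongchang. In both breeds the animal numbered 1 was lowest, and the breeds overlapped over nearly their whole range. It reached 1 FPKM in exactly 3 libraries, 2 of wild boar and 1 of Rongchang, and so passed the filter by the narrowest margin. Its means were 0.939 ± 0.260 FPKM in wild boar and 0.921 ± 0.219 FPKM in Rongchang, with a log2 fold change of 0.01 (95% interval −0.39 to 0.41, adjusted p = 0.990 in limma), a sign that changed when single libraries were left out.

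CBLN3, which in mouse is made by cerebellar granule cells and needs CBLN1 for its secretion, was at 0.452, 0.437 and 0.445 FPKM in wild boar and 0.505, 0.325 and 0.408 FPKM in Rongchang. The wild boar values lay inside the Rongchang range. CBLN3 was under 1 FPKM in every library and was not tested. The granule cell genes given above had mixed levels. In a fit without the filter on low values, over 18225 genes, CBLN3 had a log2 fold change of 0.03 (95% interval −0.15 to 0.22) and C1QL4 one of 0.01 (−0.28 to 0.29). The 1 FPKM added before the logarithm compresses differences between values this low. These narrow intervals therefore do not show that the breeds were alike.

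ADGRB3, the shared receptor of the C1q-like ligands, was at 12.4, 19.3 and 15.0 FPKM in the wild boar libraries and 14.4, 21.1 and 17.9 FPKM in the Rongchang libraries. In each breed the animal numbered 2 was highest and the animal numbered 1 lowest, and the breeds overlapped. Its means were 15.5 ± 3.48 FPKM in wild boar and 17.8 ± 3.37 FPKM in Rongchang, with a log2 fold change of −0.19 (95% interval −0.67 to 0.29, adjusted p = 0.874 in limma). ADGRB3 was also lower in wild boar in 3 of 3 pairs of equal number, as were CBLN2 and 38.5% of all genes tested. With the pairs in the fit, the unadjusted p of ADGRB3 in limma was 0.0874 and the adjusted p = 0.341. With median scaling as well, its log2 fold change was −0.03 and its unadjusted p in limma was 0.771. The genes nearest in pattern were ZBTB11 (r 0.997), PARG (0.995) and PFKP (0.995), with 612 genes above 0.9.

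Apart from C1QL2, then, 0 of the 4 members tested passed the threshold in limma, with or without the pairs in the fit. Without the pairs, none reached an unadjusted p under 0.05, and with them C1QL3 did. Over all genes tested, limma called 0.00760% lower and 0% higher in wild boar, and 5.42% were lower and 0.578% higher at an unadjusted p under 0.05. The log2 fold changes of these 4 members were −0.53 for C1QL3, −0.19 for ADGRB3, −0.07 for CBLN2 and 0.01 for CBLN4. Over all genes tested, 77.9% lay below 0 and the median was −0.13. With median scaling the 4 values were −0.37, −0.03, 0.09 and 0.09, where 46.4% of all genes lay below 0. C1QL2 is left out of this comparison because it was chosen for its lower values.

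**Figure D2:**
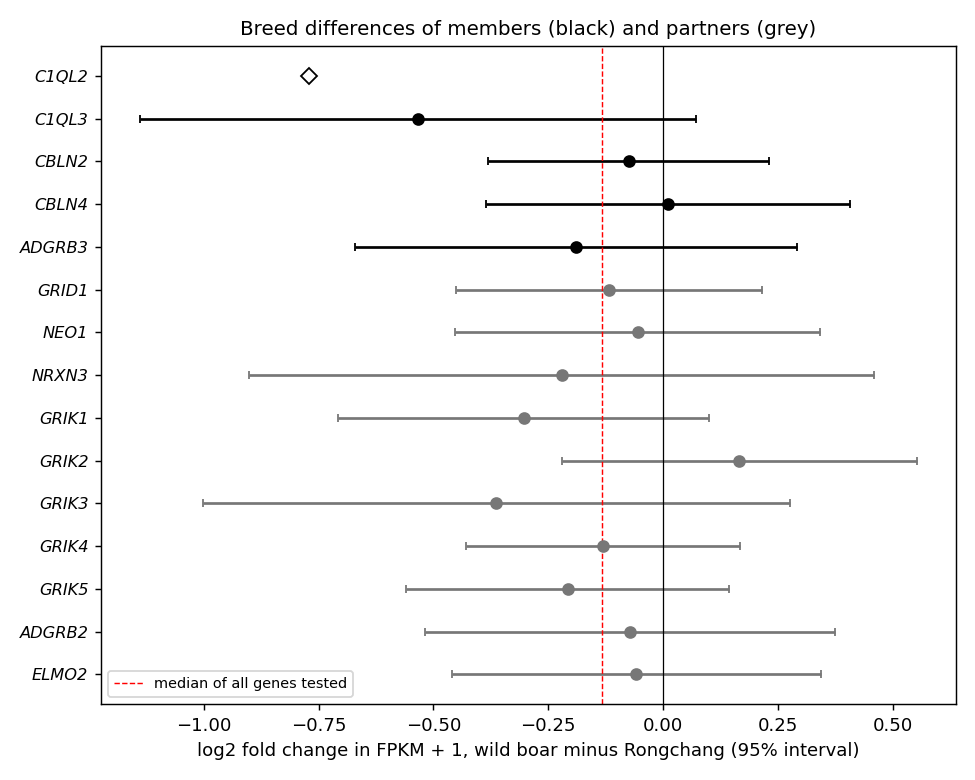
Log2 fold change in FPKM + 1, wild boar minus Rongchang, of the 5 members tested (black) and 10 binding partners and relatives (grey), with the 95% interval of limma, not adjusted for the number of genes. C1QL2 is drawn as an open diamond without an interval because it was chosen for this difference. The dashed red line is the median of all genes tested at −0.13, and each interval drawn includes 0.

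The binding partners were described next, from a list of 15 genes of which 10 had a row and all 10 were tested. None passed in limma (0 higher and 0 lower, and 0 at an unadjusted p under 0.05), with adjusted p of at least 0.794. Of the 10, 9 lay below 0 and 4 below the median gene, with a median of −0.12, next to 77.9% and −0.13 over all genes. NRXN2, DCC, ADGRB1, ELMO1 and DOCK1 were matched to no row and were not analysed here.

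Among cerebellin receptors, GRID1 was at 10.8, 13.2 and 11.6 FPKM in wild boar and 12.1, 13.5 and 13.3 FPKM in Rongchang. Its log2 fold change was −0.12, and 0.04 with median scaling (95% interval of the first −0.45 to 0.21). Neogenin (NEO1) was at 8.01 to 10.2 FPKM in wild boar and 8.04 to 11.2 FPKM in Rongchang, with a log2 fold change of −0.06 that was 0.10 with median scaling.

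NRXN3, the neurexin linked to C1QL2 and C1QL3 in mouse, was at 10.5, 18.4 and 10.03 FPKM in wild boar and 12.5, 21.8 and 11.7 FPKM in Rongchang. In both breeds the animal numbered 2 stood above the other animals, which were close to each other (log2 fold change −0.22, 95% interval −0.90 to 0.46). These FPKM values are per gene and do not separate the neurexin splice forms that decide cerebellin binding.

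Of the kainate receptor subunits, GRIK2 was the most abundant at 19.4, 21.6 and 21.1 FPKM in wild boar and 16.2, 22.4 and 16.9 FPKM in Rongchang (log2 fold change 0.17, 95% interval −0.22 to 0.55). GRIK4, a high-affinity subunit of mossy fibre synapses, was at 4.19, 4.44 and 4.34 FPKM in wild boar and 4.73, 4.94 and 4.82 FPKM in Rongchang. The breeds did not overlap for GRIK4, the 1 partner of 10 of which this was true, where 11.4% of all genes tested had wild boar below Rongchang. Its log2 fold change of −0.13 was also that of the median gene and became 0.01 with median scaling (95% interval of the first −0.43 to 0.17, adjusted p = 0.863 in limma). GRIK1, GRIK3 and GRIK5 had log2 fold changes of −0.30, −0.36 and −0.21, with overlapping breeds. The ADGRB3 relative ADGRB2 and the engulfment adaptor ELMO2 had log2 fold changes of −0.07 and −0.06, and of 0.09 and 0.11 with median scaling.

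The libraries differed from each other within each breed in a way that many of these genes shared. NRXN3 and GRIK3 were highest in the libraries numbered 2 of both breeds, by 0.41 and 0.43 log2 units over the 6-library mean in wild boar 2 and 0.65 and 0.49 in Rongchang 2. ADGRB3 followed them, by 0.22 in wild boar 2 and 0.35 in Rongchang 2, and it was 0.38 below the mean in wild boar 1. C1QL3 was 0.17 above the mean in wild boar 2 and 0.53 above it in Rongchang 2, and it was also high in Rongchang 3 by 0.48. C1QL2 was 0.56 below the mean in wild boar 2 and 0.35 above it in Rongchang 2, an order that the choice of the gene fixed.

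**Figure D3:**
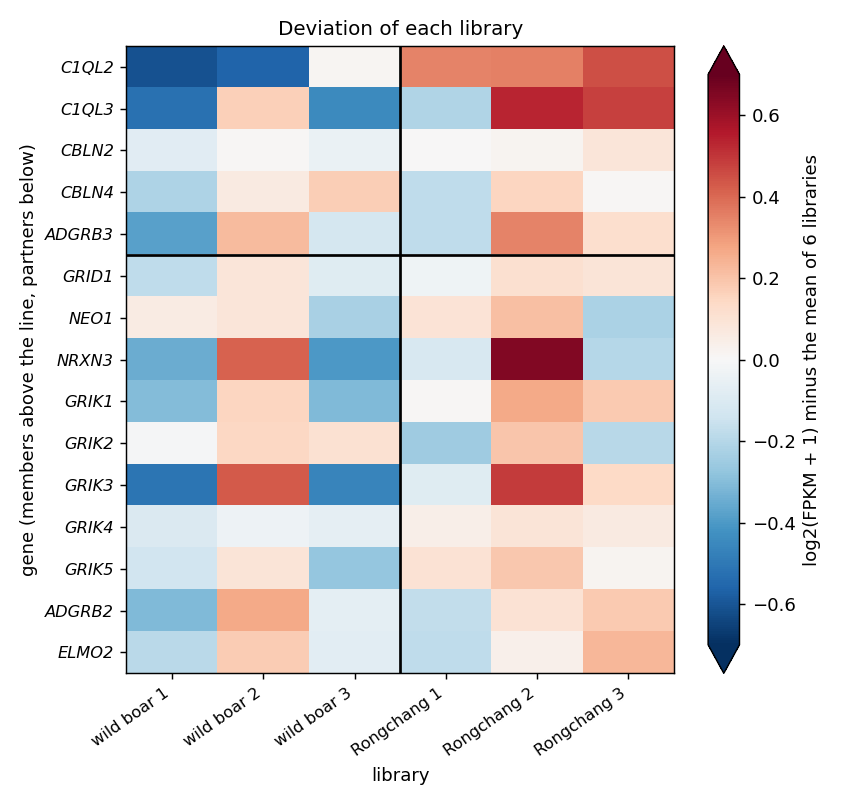
Deviation of log2(FPKM + 1) of each library from the mean of the 6 libraries, red above and blue below, with wild boar libraries on the left and Rongchang libraries on the right. The 5 members tested stand above the horizontal line and the 10 partners below it. NRXN3 and GRIK3 are red in both libraries numbered 2, C1QL2 is blue in wild boar 1 and 2, and CBLN2 stays within 0.09 of its mean.

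With the breed means removed, C1QL3 and ADGRB3 varied together across the 6 libraries (Pearson r 0.93), as did ADGRB3 with GRID1 (0.96). ADGRB3 with GRIK4 had an r of 0.98, but 0.67 with the breed means kept. GRIK4 varied little within a breed (SD 0.125 FPKM in wild boar and 0.105 FPKM in Rongchang). Other pairs were as high, such as GRIK1 with GRIK3 (0.99) and ADGRB2 with GRID1 (0.98). C1QL2 had an r of −0.17 with C1QL3 and 0.00 with ADGRB3. Its r was −0.73 with GRIK5, −0.72 with NEO1 and 0.59 with CBLN4. These are descriptions over 6 values that share a library, with the scaling and cell makeup of each. Without both libraries numbered 2, the log2 fold change of C1QL2 was −0.70, that of C1QL3 −0.62 and that of ADGRB3 −0.22.

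Markers of the cells in each library moved between libraries too. The 9 cortical projection neuron genes with a row, of 12 listed, summed to 361, 499 and 423 FPKM in the wild boar libraries and to 382, 529 and 545 FPKM in the Rongchang libraries, lowest in the animal numbered 1 of each breed, as were ADGRB3 and C1QL3. The 4 oligodendrocyte genes with a row, of 6 listed, summed to 2027, 1230 and 1575 FPKM in wild boar and 1893, 1595 and 1660 FPKM in Rongchang. The 3 blood genes with a row, of 5 listed, ranged from 58.5 to 276 FPKM in wild boar and from 68.5 to 191 FPKM in Rongchang, and were lowest in the libraries numbered 2. The sums of the 4 endothelial and mural genes with a row, of 6 listed, did not overlap, at 26.4 to 30.3 FPKM in wild boar and 17.9 to 24.3 FPKM in Rongchang. All 4 had a log2 fold change above 0 (median 0.31), and the breeds were apart for the pericyte receptor PDGFRB, which was higher in wild boar, as were 1.12% of all genes tested. No marker with a row was at 0 in all 6 libraries. The part of cell makeup in the values of C1QL2, C1QL3, ADGRB3 and NRXN3 was not tested.

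Ratios of FPKM within a library do not depend on the scaling of that library, and 18 ratios of a ligand to a partner, or of C1QL2 to C1QL3, were computed after the values were seen. In 4 of them all wild boars lay below all Rongchang pigs, and in 0 they lay above. C1QL2 over C1QL3 overlapped between the breeds, at 0.268, 0.167 and 0.441 in wild boar and 0.487, 0.283 and 0.319 in Rongchang. C1QL2 over ADGRB3 also overlapped (0.208, 0.140 and 0.301 in wild boar and 0.413, 0.282 and 0.362 in Rongchang). Against 2 of the 5 kainate subunits the breeds were apart. C1QL2 over GRIK2 was 0.133, 0.124 and 0.214 in wild boar and 0.366, 0.266 and 0.383 in Rongchang. C1QL2 over GRIK4 was 0.615, 0.606 and 1.04 in wild boar and 1.26, 1.21 and 1.34 in Rongchang. With GRIK1, GRIK3 and GRIK5 as denominators the breeds overlapped, as with C1QL2 over GRIK5 at 0.244, 0.215 and 0.473 in wild boar and 0.470, 0.443 and 0.545 in Rongchang. Over all other tested genes above 0 in every library as denominators, 51.9% of the ratios of C1QL2 had wild boar below Rongchang, so the 2 ratios that were apart are not particular to the kainate subunits.

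C1QL3 over ADGRB3 was 0.778, 0.838 and 0.682 in wild boar and 0.848, 0.997 and 1.13 in Rongchang. The breeds were apart by a narrow gap between wild boar 2 and Rongchang 1. C1QL3 over GRIK2 was 0.496, 0.746 and 0.485 in wild boar and 0.751, 0.940 and 1.20 in Rongchang, again with the nearest libraries almost equal, and over the other 4 kainate subunits and NRXN3 the breeds overlapped. With C1QL3 over every other such gene, 10.1% of the ratios had this order. Of the 3 ratios of a cerebellin, 0 were apart, and with CBLN2 over every other such gene 2.14% had wild boar below Rongchang. CBLN2 over GRID1 was 1.23, 1.08 and 1.18 in wild boar and 1.17, 1.06 and 1.14 in Rongchang, and with the animal numbered 2 lowest in each breed it varied little.

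**Figure D4:**
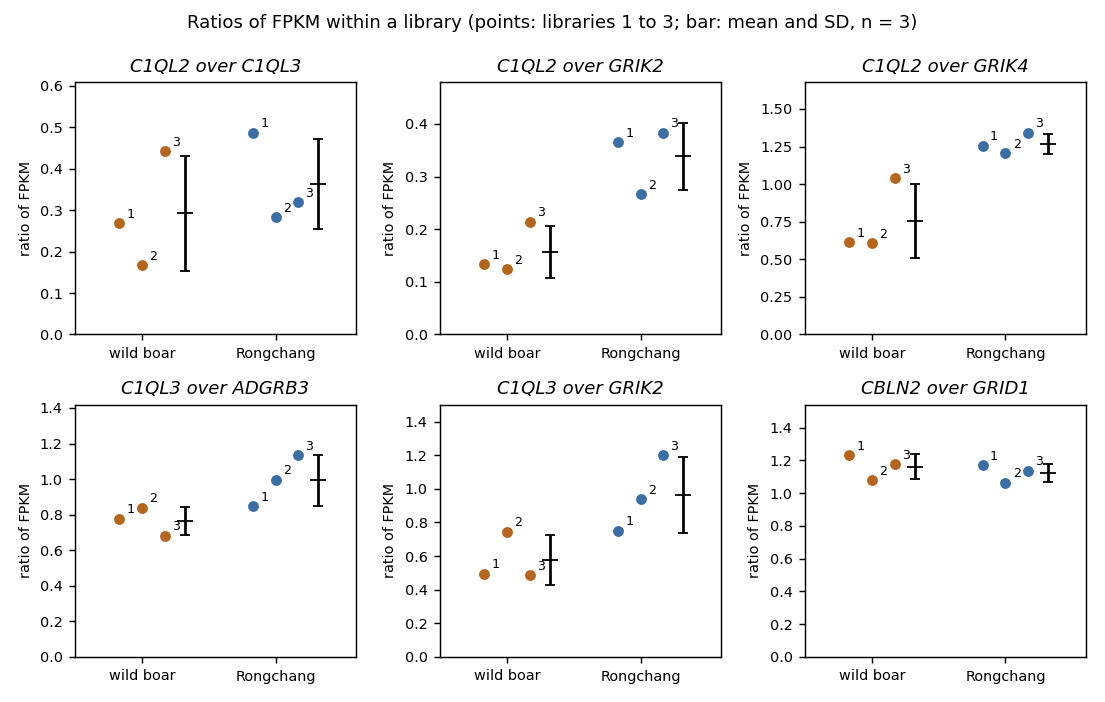
Ratios of FPKM within a library for 6 of the 18 ratios, wild boar in brown on the left and Rongchang in blue on the right, with the animal number at each point and the mean with SD as a bar (n = 3). C1QL2 over GRIK2 is 0.124 to 0.214 in wild boar and 0.266 to 0.383 in Rongchang, while C1QL2 over C1QL3 and CBLN2 over GRID1 overlap.

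The wider list of synaptic organisers, genes linked to the building of synapses and some of their relatives, was used for context. Of 47 listed, 42 had a row and were tested, and 0 passed in either direction in limma, with 1 higher and 0 lower at an unadjusted p under 0.05. Of these 42, 34 lay below 0, with a median log2 fold change of −0.13, as over all genes tested. The most abundant were the astrocyte-secreted SPARCL1 (513 ± 19.0 FPKM in wild boar and 488 ± 43.6 FPKM in Rongchang), its relative SPARC (285 ± 16.3 FPKM in wild boar and 309 ± 29.1 FPKM in Rongchang) and the calsyntenin CLSTN1 (116 ± 35.03 FPKM in wild boar and 122 ± 21.2 FPKM in Rongchang). LGI2, a secreted relative of the epilepsy gene LGI1, had the smallest p, at 10.7, 14.4 and 16.2 FPKM in wild boar and 9.70, 11.3 and 8.16 FPKM in Rongchang (log2 fold change 0.46, adjusted p = 0.789 in limma). The neuroligin NLGN1, a postsynaptic partner of neurexins, was at 7.16, 7.74 and 7.25 FPKM in wild boar and 8.46, 9.95 and 8.82 FPKM in Rongchang (log2 fold change −0.26, adjusted p = 0.789 in limma). Its breeds did not overlap, as for 2 of the 42 in that direction and 1 in the other, where 11.4% of all genes tested had wild boar below and 1.12% had wild boar above.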

How the data were processed

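The deposited table holds 1 value per gene and library. The authors' header names the libraries and no unit, and FPKM was judged from the submitters' processing notes, which name Cufflinks 2.2.1, Cuffdiff and TopHat2 2.0.11, and from decimals that sum to 568921 to 687359 per library. Not given in the sources used here are the build, the annotation and how reads shared by paralogs were handled. Low values gave no common step between libraries (at most 23.7% of ratios under 0.15 FPKM in 1 window of 0.04 log2 units), so read counts were not recovered and depth is unknown.

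Symbols came from a table of Ensembl identifiers, which named 10937 of 18225 rows (60.0%), taking the row with the highest mean. Wild boar was compared with Rongchang in limma 3.58.1 (R 4.3.3) on log2(FPKM + 1), two-sided with a mean-variance trend, for the 13152 genes that reached 1 FPKM in 3 or more of the 6 libraries, with Benjamini-Hochberg adjustment over all of them and a threshold of 0.05. Fold changes on this scale understate changes of low genes. The fit was tested on simulated data. Members and lists were chosen with earlier results of these data known. All members and measured partners on the list are named (some partners are not reported here), the 3 most abundant and the 2 with the smallest p of the other organisers, and the 3 genes most like each member with a mean of at least 1 FPKM. FAM163B, MAN1A1, PROX1 and DSP and the other markers given as levels were picked to show their list, after their values were seen.

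Both breeds number their animals 1 to 3. After subtraction of the breed means, wild boar and Rongchang libraries of equal number correlated at 0.28, 0.59 and 0.37 over the genes tested. All exceed the bound of 0.1 for pairing, so the numbers were taken as pairs on the evidence of these same data, though wild boar 3 with Rongchang 1 also reached 0.12. The labels do not say that the numbers pair animals. By Spearman correlation, wild boar 3 was nearer to wild boar 1 (0.969) and Rongchang 1 (0.964) than to Rongchang 3 (0.961). The fit without the pairing is the primary one. No libraries were identical. Figures were drawn with matplotlib 3.10.9.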

Additional observations from a re-analysis of the deposited data

How the results depend on the processing

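Over 17 alternatives (16 planned, and leaving out both libraries numbered 2, which was chosen after seeing the data), 0 of the 20 members, partners and organisers followed passed the threshold in limma in any fit that tested them. C1QL2, CBLN4 and GRIK4 were not in the fit limited to a mean of at least 5 FPKM. C1QL2, C1QL3, ADGRB3, GRIK1, GRIK2, GRIK3, GRIK5, LGI2, NLGN1 and SPARCL1 kept their sign in each fit. For C1QL2 the fits reuse the values by which it was chosen, so its kept sign and its place among the 20 are descriptions.

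With median scaling, with or without the replicate block, the sign turned for CBLN2 (0.088), GRID1 (0.043), GRIK4 (0.012), NEO1 (0.10), ADGRB2 (0.094), ELMO2 (0.11), CLSTN1 (0.070) and SPARC (0.061). With quantile normalization it turned for CBLN2 (0.070), GRID1 (0.032), GRIK4 (0.0082), NEO1 (0.093), ADGRB2 (0.071), ELMO2 (0.091) and CLSTN1 (0.042), and with both libraries numbered 2 left out for SPARC (0.0019). By construction both scalings remove the shift of the median gene.

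Leaving out single libraries gave −0.076 to 0.12 for CBLN4, −0.48 to 0.047 for NRXN3, −0.18 to 0.043 for NEO1, −0.22 to 0.063 for ADGRB2, −0.16 to 0.042 for ELMO2 and −0.33 to 0.10 for CLSTN1. Genes called lower over the whole table numbered 1, and 3 with a pseudocount of 0.1, 0 with a mean of at least 5 FPKM, 3 without both libraries numbered 2, and 1 to 4 without single libraries (4 without wild boar 1 or Rongchang 2, 3 without Rongchang 1). Genes called higher numbered 0, and 0 to 1 without single libraries (1 without Rongchang 1). The cause was not tested. With the replicate block, 1 gene was called lower and 0 higher, and the block changed no call of the genes named.

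Without known depth no counting interval can be given. With 3 animals per breed some 95% intervals hold sizeable differences in either direction, as for NRXN3 (−0.90 to 0.46). Those of C1QL3 (−1.14 to 0.07) and GRIK1 (−0.71 to 0.10) hold a sizeable decrease, no change and a small increase. That of CBLN2 was narrower (−0.38 to 0.23).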
